A study of Homo sapiens with 6 samples.

Results

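Circular RNAs (circRNAs) from the genes of protein kinase and lipid kinase signalling were examined in Ishikawa cells, a human endometrial carcinoma line. The members were chosen by host gene name alone: every circRNA whose host carries a MAP2K, MAP3K, MAP4K, MAPK, TAOK, STK, PAK, PIK3, PIP4K, PIP5K, AKT, PRKA, PRKC, ROCK, CSNK1, CSNK2 or PTK name. This rule took 79 of 4814 circRNAs, from 41 of 2531 host genes, with 566 of 26060 junction reads. By their known function 35 of the 41 hosts encode kinases. The other 6 carry a matching name only: the regulatory subunits PIK3R3, PRKAR1B and PRKAR2A, the PAK1 inhibitor PAK1IP1, the glucosidase II subunit PRKCSH and the pseudogene ROCK1P1. Together these 6 gave 10 circRNAs and 70 reads.

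There were 3 libraries of Ishikawa cells treated with MPA and 3 control libraries of the same line with no MPA, all from total RNA. The labels state neither dose nor time of treatment and do not spell out MPA. They name no separate cultures either, and the p-values therefore rest on a spread between libraries that may be technical. Each value is a count of reads that cross a back-splice junction. Junction reads per library numbered 4468, 4339 and 5454 with MPA, against 4316, 3740 and 3743 in control cells. The table lists only circRNAs that reached 2 reads in at least 1 library, and 28 of the 79 kinase circRNAs had just those 2 reads. Of 7 epithelial marker genes, EPCAM, CDH1 and PAX8 hosted a circRNA, with 8 reads in all. PGR and ESR1, the progesterone and estrogen receptor genes, hosted none in the table, nor did the 4 immune or the 4 endothelial markers. FBN1, with 3 reads, was the only host among 8 stromal markers.

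A circRNA forms when the splice donor at the end of an exon is joined to the acceptor of the same or an upstream exon, which closes the RNA into a ring. In the MAPK cascade, MAP4Ks act on MAP3Ks, MAP3Ks and TAO kinases phosphorylate MAP2Ks, and MAP2Ks phosphorylate the MAPKs, among them JNK and p38. PI3-kinases phosphorylate membrane lipids that recruit AKT, a pathway often mutated in endometrial carcinoma. The circRNA counts do not measure the linear mRNA, the protein or the kinase activity of the host.

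The back-splice junctions of the kinase hosts PAK2, MAP3K4, PIK3R3 and PIP5K1C are shown because alternative rings of PAK2 and of MAP3K4 share a splice site, and because these junctions were among the most read. Each line holds the last 20 bases of the donor exon in lower case, then the first 20 bases of the acceptor exon in capitals, 5′ to 3′ on the host's strand. They were read from GENCODE 29 transcripts on GRCh38, in which all 40 bases are coding.
PAK2 hsa_circ_0003036: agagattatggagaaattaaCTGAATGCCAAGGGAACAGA
PAK2 hsa_circ_0004950: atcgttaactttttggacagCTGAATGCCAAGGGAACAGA
MAP3K4 hsa_circ_0078617: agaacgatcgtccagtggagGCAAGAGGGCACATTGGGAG
MAP3K4 hsa_circ_0078619: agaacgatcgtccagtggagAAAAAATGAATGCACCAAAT
PIK3R3 hsa_circ_0012300: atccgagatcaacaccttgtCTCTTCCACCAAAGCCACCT
PIP5K1C hsa_circ_0000871: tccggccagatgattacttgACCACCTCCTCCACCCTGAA
The PAK2 pair has the same capitals, hence the same acceptor and different donors. The MAP3K4 pair has the same lower-case run, hence the same donor and different acceptors. The whole ring of the more read PAK2 circRNA is 241 bases long, all coding, and is given with its first and last 20 bases, which meet at the junction, in capitals.
PAK2 hsa_circ_0003036 ring: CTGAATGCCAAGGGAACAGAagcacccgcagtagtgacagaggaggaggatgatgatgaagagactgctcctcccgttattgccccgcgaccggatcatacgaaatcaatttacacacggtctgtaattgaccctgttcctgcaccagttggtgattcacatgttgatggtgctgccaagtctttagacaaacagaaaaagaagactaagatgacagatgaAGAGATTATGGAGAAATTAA

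No kinase circRNA and no kinase host gene passed the test between MPA and control cells. As a whole, the kinase hosts held 1.97, 2.30 and 1.80% of the junction reads in the MPA libraries, against 2.53, 2.27 and 2.30% in the control libraries. The highest MPA library lay just above the lower control libraries, so the groups overlapped. The means were 2.02 ± 0.258% with MPA and 2.37 ± 0.139% in control cells (SD, n = 3 each), a difference of -0.342 percentage points. The ratio of the pooled shares was 0.845, with an exact 95% interval from 0.714 to just above 1 that covers counting error only. Pooled kinase reads numbered 286 with MPA and 280 in control cells. Since reads are shares of bulk RNA, fewer rings per cell, fewer cells with them and more reads of other circRNAs cannot be told apart. The number of kinase circRNAs with a read was 30, 30 and 40 with MPA, against 37, 33 and 29 in control cells. The groups overlapped here too. These counts are not matched for depth, and MPA replicate 3 had the most junction reads. With all libraries thinned to the smallest total, the expected means were 30.1 ± 2.76 with MPA and 32.6 ± 3.40 in control cells (SD, n = 3 each). Thinning moved the difference in means from 0.333 to -2.44, and the groups still overlapped.

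Reads were concentrated in few hosts. PTK2, STK3, CSNK1G3, MAP3K4, PAK2 and PIK3R3 held 336 of the 566 reads, or 59.4%, and 9 of the 41 hosts were read in all 6 libraries. At the other end 20 hosts had 2 to 5 reads each and 60 reads together.

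**Figure D1:**
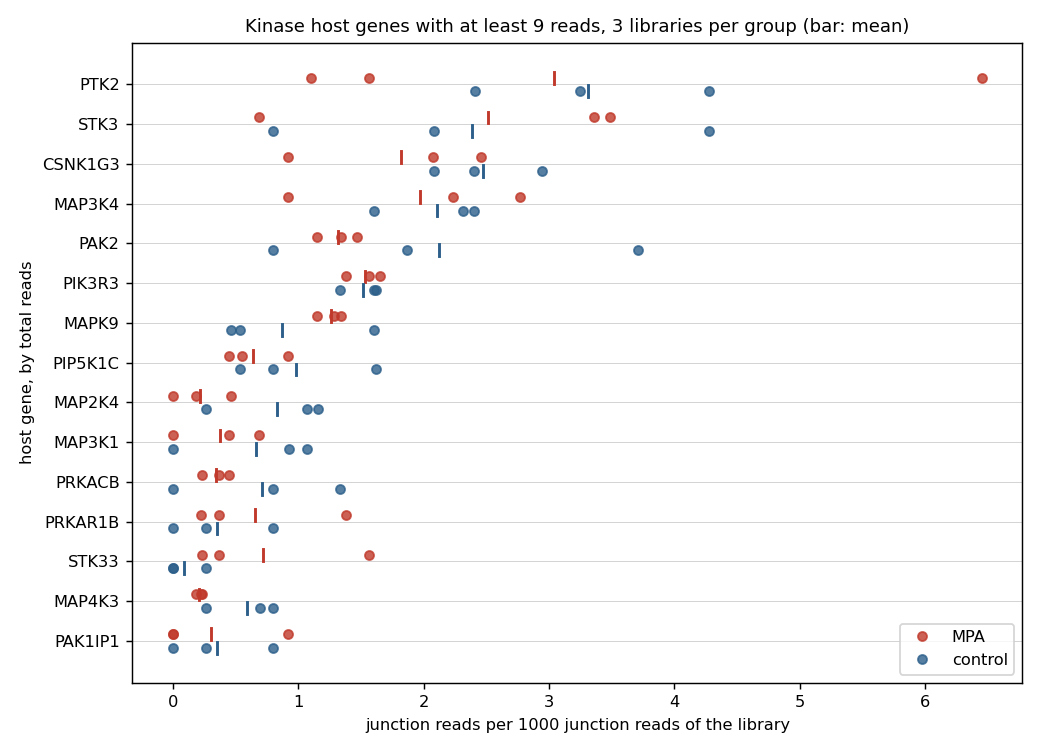
Junction reads per 1000 of the library total (x axis) for the 15 kinase hosts with at least 9 reads, with 3 MPA and 3 control libraries as points and the group means as short bars. The MPA and control points of the most read hosts interleave, and MPA replicate 2 lies far above the other libraries for PTK2.

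PTK2, the only PTK-named host, encodes focal adhesion kinase, a cytoplasmic tyrosine kinase that signals from integrins, and was the most read host, with 9 circRNAs and 80 reads. Its reads numbered 7, 28 and 6 in the MPA libraries, against 14, 9 and 16 in the control libraries. MPA replicate 2 was the highest of all and the other MPA libraries were the lowest, so the groups overlapped. PTK2 made up 28.0% of the kinase reads in MPA replicate 2. The host means were 13.7 ± 12.4 reads with MPA and 13.0 ± 3.61 reads in control cells (SD, n = 3 each). The log2 fold change of the host was -0.11 ± 0.43 (SE; 95% interval -0.95 to 0.74; edgeR adjusted p = 0.946), and it was -1.27 without MPA replicate 2 (edgeR unadjusted p = 0.0183, adjusted p = 0.741).

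Of the 9 PTK2 circRNAs, 6 shared the acceptor at chr8:141900868 on hg19 and held 73 of the 80 reads (91.2%). By length and span each of these 6 begins at exon 3 of the transcript matched and holds the start codon, and they differ in the last exon. The most read, hsa_circ_0003221 (exons 3 to 7), had 2, 7 and 3 reads with MPA, against 0, 5 and 8 in control cells. The shorter hsa_circ_0002483 (exons 3 to 5) had 3, 10 and 0 reads with MPA, against 3, 0 and 0 in control cells. The longer hsa_circ_0005982 (exons 3 to 10) had 0, 3 and 1 reads with MPA, against 4, 2 and 4 in control cells. Each of these 3 rings overlapped between the groups. A second edgeR fit took all circRNAs averaging 2 or more reads. It gave log2 fold changes of 1.87 ± 1.07 (SE) for hsa_circ_0002483 and -1.40 ± 1.07 (SE) for hsa_circ_0005982, each at an adjusted p of 0.994. The value for hsa_circ_0002483 was 0.34 without MPA replicate 2.

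**Figure D2:**
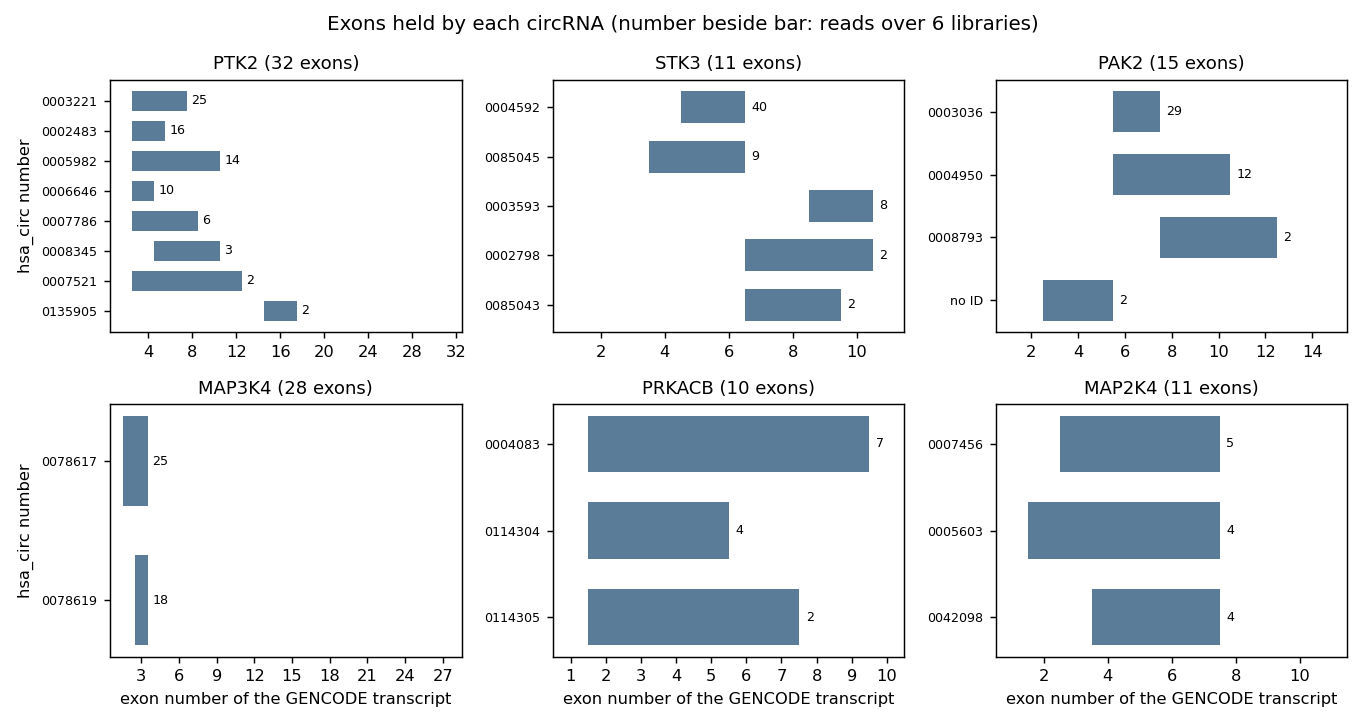
Exons spanned (x axis, exon number in the matched transcript) by each circRNA of PTK2, STK3, PAK2, MAP3K4, PRKACB and MAP2K4 that could be placed on the transcript drawn, 1 bar per circRNA with its reads over the 6 libraries beside it. Of the PTK2 bars 6 start at exon 3, the most read STK3 bars end at exon 6, and the MAP2K4 bars end at exon 7.

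Among the PAK and STK hosts, 9 genes with 19 circRNAs and 146 reads, STK3 and PAK2 led. STK3 encodes a Hippo pathway kinase that acts on the LATS kinases. Its 6 circRNAs had 15, 3 and 19 reads with MPA, against 9, 3 and 16 in control cells. Both groups held a library with 3 reads and overlapped over nearly their whole range. The log2 fold change of the host was 0.15 ± 0.47 (SE; 95% interval -0.78 to 1.09; edgeR adjusted p = 0.946). Of its rings, 3 shared the donor at chr8:99718695 and held 53 of 65 reads (81.5%).

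The 2-exon ring hsa_circ_0004592 (exons 5 to 6, chr8:99718695-99719539) was the main STK3 product, with 9, 3 and 8 reads with MPA, against 7, 2 and 11 in control cells. Its log2 fold change was -0.21 ± 0.56 (SE; edgeR adjusted p = 0.936). The other rings at that donor came mostly from single libraries: hsa_circ_0085045, which adds exon 4, had 8 of its 9 reads in MPA replicate 3, and all 4 reads of hsa_circ_0005934 came from MPA replicate 1.

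PAK2 encodes a kinase activated by the small GTPases Rac and Cdc42. The host had 6, 5 and 8 reads with MPA, against 16, 7 and 3 in control cells. The control libraries enclosed the MPA libraries on both sides. Its log2 fold change was -0.65 ± 0.56 (SE; 95% interval -1.75 to 0.44; edgeR adjusted p = 0.946), and 0.05 without control replicate 1.

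The 2 main PAK2 rings share the acceptor of exon 6 at chr3:196533450, and they held 41 of 45 PAK2 reads (91.1%). The ring of exons 6 to 7, hsa_circ_0003036 (chr3:196533450-196534785), had 4, 0 and 3 reads with MPA, against 14, 5 and 3 in control cells. The ring of exons 6 to 10, hsa_circ_0004950 (chr3:196533450-196539722), had 2, 3 and 5 reads with MPA, against 0, 2 and 0 in control cells. Taken singly, each ring overlapped between the groups. The shorter ring had a log2 difference of -1.75 ± 0.73 (SE; edgeR unadjusted p = 0.0161, adjusted p = 0.994), and the longer had 1.96 ± 1.34 (SE; edgeR unadjusted p = 0.143, adjusted p = 0.994). The shorter ring was the only one of the 13 kinase circRNAs averaging 2 or more reads whose unadjusted p lay under 0.05. Over all 382 circRNAs of that fit, 1.31% lay under it with MPA lower and 1.83% with MPA higher, and none was called after adjustment. Its value rests on control replicate 1, which held 14 of its 22 control reads. Without that library the log2 difference was -0.98 ± 1.11 (SE; edgeR unadjusted p = 0.375), and without MPA replicate 2 it was -1.28 ± 0.71 (SE; edgeR unadjusted p = 0.0730).

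The balance of these PAK2 rings was looked at after their values were seen. hsa_circ_0003036 made up 66.7, 0 and 37.5% of the reads of the pair in the MPA libraries, against 100, 71.4 and 100% in the control libraries. Every MPA library lay below every control library. The means were 34.7 ± 33.4% with MPA and 90.5 ± 16.5% in control cells (SD, n = 3 each), a difference of -55.8 percentage points that ran from -71.7 to -38.4 as each library was left out. Over the 270 splice sites of the table whose 2 most read circRNAs had together at least 1 read in every library, 8 of them in kinase hosts, the groups did not overlap for 2.59% in the lower direction and 3.33% in the higher. As few as 3 reads stood behind a library's share, and no test was made on this pair.

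**Figure D3:**
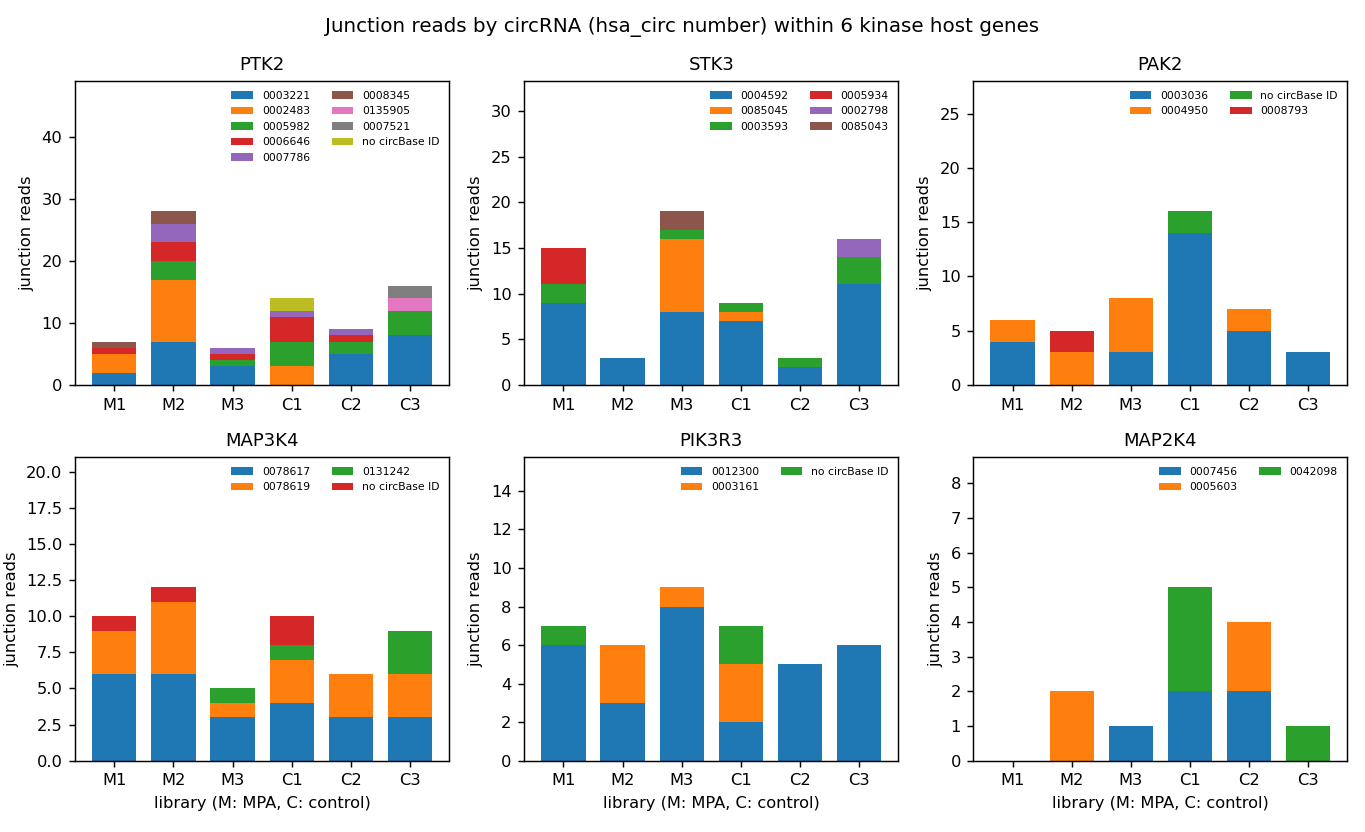
Junction reads per library (y axis) of the circRNAs of PTK2, STK3, PAK2, MAP3K4, PIK3R3 and MAP2K4, stacked by ring, with MPA libraries (M) left of control libraries (C). In PAK2 the ring hsa_circ_0003036 makes up most of the control bars and hsa_circ_0004950 is present in every MPA bar.

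The smaller PAK and STK hosts were read unevenly. STK33 had 7, 1 and 2 reads with MPA, against 0, 0 and 1 in control cells. Its pooled share was 8.27 times as high with MPA, with an exact 95% counting interval of 1.18 to 359. MPA replicate 1 held 7 of its 10 MPA reads, and single MPA and control libraries still overlapped when scaled by depth. On the lower side such intervals also left out 1, for MAP2K4 (ratio 0.248, 0.0439 to 0.964) and CSNK1G1 (ratio 0, 0 to 0.903). How often they do so over all hosts was not counted. PAK1IP1, whose product binds and inhibits PAK1, had 0, 0 and 5 reads with MPA, against 0, 3 and 1 in control cells. PAK1 itself had 5 reads, and STK17B, STK24, STK39 and STK36 had 2 or 3 each.

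The MAPK cascade contributed 10 hosts, 21 circRNAs and 136 reads, with members at every tier. The family held 0.537, 0.530 and 0.330% of the junction reads in the MPA libraries, against 0.672, 0.561 and 0.561% in the control libraries. Every MPA library lay below every control library. The other families overlapped, and how often a set of hosts of this size separates was not counted. The means were 0.466 ± 0.118% with MPA and 0.598 ± 0.0639% in control cells (SD, n = 3 each), and the ratio of pooled shares was 0.757 with an exact 95% counting interval of 0.533 to 1.08. When only circRNAs averaging 2 or more reads were counted, in the share and in the total, the difference turned from -0.132 to 0.167 percentage points, so its direction rests on rings with few reads. Without MPA replicate 3 the difference was -0.0645, and it ran to -0.168 as other libraries were left out.

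At the MAP3K tier, MAP3K4, which signals to JNK and p38, had 10, 12 and 5 reads with MPA, against 10, 6 and 9 in control cells. The MPA libraries lay on both sides of the control libraries, and the log2 fold change was -0.09 ± 0.53 (SE; 95% interval -1.13 to 0.96; edgeR adjusted p = 0.953). Its rings at the common donor chr6:161471011 held 47 of 52 reads (90.4%). The ring of exons 2 to 3, hsa_circ_0078617 (chr6:161455291-161471011), had 6, 6 and 3 reads with MPA, against 4, 3 and 3 in control cells. The ring of exon 3 alone, hsa_circ_0078619 (chr6:161469648-161471011), had 3, 5 and 1 reads with MPA, against 3, 3 and 3 in control cells. Both rings were read in every library, and their log2 fold changes were 0.42 ± 0.75 and -0.15 ± 0.96 (SE; edgeR adjusted p = 0.994 each). MAP3K1, another MAP3K of the JNK arm, had 2, 3 and 0 reads with MPA, against 4, 0 and 4 in control cells.

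MAP2K4, which phosphorylates JNK and p38, had 0, 2 and 1 reads with MPA, against 5, 4 and 1 in control cells. Control replicate 3 lay within the range of the MPA libraries and the other control libraries above it. The log2 fold change, -1.86 ± 1.25 (SE; 95% interval -4.31 to 0.58; edgeR adjusted p = 0.987), was the furthest from 0 among the 12 kinase hosts averaging 2 or more reads. All 3 MAP2K4 rings used the donor at chr17:12016677.

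At the MAPK tier, MAPK9, which encodes JNK2, had 6, 5 and 7 reads with MPA, against 2, 6 and 2 in control cells. Control replicate 2 lay within the MPA range in reads, but above every MPA library when scaled by library total. The other control libraries lay below the MPA range either way. Its main ring, hsa_circ_0001566 (exons 2 to 5, chr5:179688684-179707608), had 6, 5 and 5 reads with MPA, against 2, 5 and 1 in control cells. The log2 fold change of this ring was 0.81 ± 0.78 (SE; 95% interval -0.73 to 2.35; edgeR adjusted p = 0.994). It holds the start codon by its exon match.

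Upstream of the MAP3Ks, MAP4K3 had 1 read in each MPA library, against 3, 3 and 1 in control cells. Scaled by library total the MPA libraries all lay lower, but control replicate 3 also had 1 read, and its 0.267 reads per 1000 stand above the highest MPA value, 0.230, through its smaller total alone. Among hosts averaging 2 or more reads, 3.89% were separated in that direction. MAP4K3, with a mean of 1.67 reads, is not among those hosts, and the share among hosts with fewer reads was not counted. TAOK1, a MAP3K of the Ste20 group, had 2, 0 and 0 reads with MPA, against 0, 2 and 2 in control cells. MAP2K5, MAP3K5 and TAOK3 had 2 reads each.

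**Figure D4:**
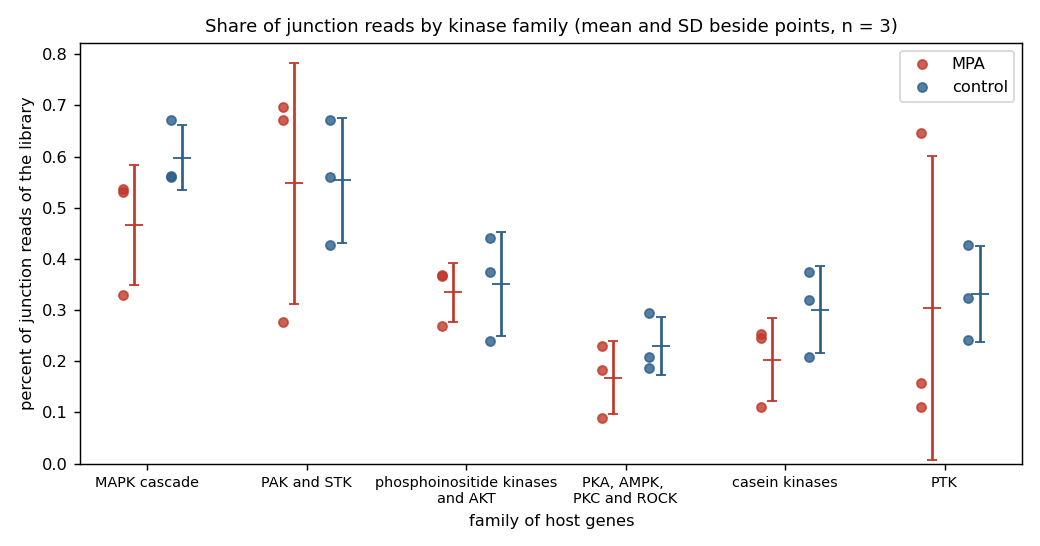
Percent of a library's junction reads (y axis) in each of the 6 kinase families, with MPA libraries left of control libraries, points for libraries and, beside them, the group mean with its SD (n = 3 each). The MAPK cascade is the 1 family of the 6 whose MPA points all lie under its control points, at 0.330 to 0.537% against 0.561 to 0.672%. How often a set of hosts of this size separates was not counted.

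Phosphoinositide kinases and AKT gave 8 hosts, 13 circRNAs and 90 reads, at 0.335 ± 0.0573% of the junction reads with MPA and 0.352 ± 0.102% in control cells (SD, n = 3 each). PIK3R3, a regulatory subunit of class I PI3-kinase, led with 7, 6 and 9 reads with MPA, against 7, 5 and 6 in control cells. The groups overlapped. Per 1000 junction reads, its SD of 0.137 with MPA and 0.159 in control cells was the smallest among the 6 most read hosts in either group. PIK3R3 also had the fewest reads of these 6 hosts, and its spread was not tested against counting error. The log2 fold change of the host was 0.06 ± 0.57 (SE; 95% interval -1.06 to 1.19; edgeR adjusted p = 0.965). Its main ring, hsa_circ_0012300 (exons 2 to 7, chr1:46521467-46546422), had 6, 3 and 8 reads with MPA, against 2, 5 and 6 in control cells, and its log2 fold change was 0.15 ± 0.65 (SE; edgeR adjusted p = 0.936).

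PIP5K1C makes phosphatidylinositol bisphosphate, the lipid on which class I PI3-kinase acts. Its only ring, hsa_circ_0000871 (exons 4 to 5, chr19:3660964-3661999), had 2, 4 and 3 reads with MPA, against 7, 2 and 3 in control cells. Control replicate 1 was the highest, the rest lay together, and the log2 fold change was -0.55 ± 0.85 (SE; edgeR adjusted p = 0.994).

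The other lipid pathway hosts had 7 reads or fewer. AKT2 had 3, 0 and 2 reads with MPA, against 1, 1 and 0 in control cells, while AKT1 had 2 reads, both in control replicate 1. PIP5K1A, which makes the same lipid as PIP5K1C, had 0, 2 and 3 reads with MPA, against 0, 1 and 0 in control cells. PIK3C3, the class III enzyme of autophagy and endosomes, had 0, 0 and 1 reads with MPA, against 2, 3 and 0 in control cells. PIK3CB, a class I catalytic subunit, had 4 reads, all in MPA replicate 2, and the class II enzyme PIK3C2A had 4 in MPA and control libraries together. No library of any of these hosts passed 4 reads.

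Casein kinases gave 3 hosts and 63 reads, nearly all from 1 ring. hsa_circ_0001522 of CSNK1G3 (exons 2 to 4, chr5:122881111-122893258), a membrane-bound casein kinase 1 that phosphorylates the Wnt co-receptor LRP6, was the most read kinase circRNA, with 54 reads. It had 11, 9 and 5 reads with MPA, against 9, 11 and 9 in control cells. The groups overlapped, with MPA replicate 3 the lowest library. The log2 fold change was -0.43 ± 0.44 (SE; 95% interval -1.30 to 0.44; edgeR adjusted p = 0.936). CSNK1G1 had 5 reads, all in control libraries, and CSNK2A1, a catalytic subunit of casein kinase 2, had 4.

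PKA, AMPK, PKC and ROCK names covered 10 hosts but only 51 reads. PRKACB, a catalytic subunit of the cyclic AMP-dependent kinase PKA, had 2, 1 and 2 reads with MPA, against 0, 5 and 3 in control cells. PRKAR1B, a regulatory subunit that holds PKA inactive, had 1, 6 and 2 reads with MPA, against 0, 1 and 3 in control cells. Each overlapped, with log2 fold changes of -0.90 ± 1.20 for PRKACB and 0.86 ± 1.23 for PRKAR1B (SE; edgeR adjusted p = 0.987 each), and PRKAR1B had -0.11 without MPA replicate 2. PRKAA1, a catalytic subunit of the energy sensor AMPK, had 1, 0 and 4 reads with MPA, against 0, 0 and 1 in control cells. PRKAR2A and ROCK2 had 4 reads each, PRKCE 3, and PRKCH, PRKCZ, PRKCSH and ROCK1P1 2 each. ROCK1P1 is a near copy of part of ROCK1, so which of them gave its reads is uncertain.

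In the edgeR fit of circRNAs averaging 5 or more reads, 0 of 3 kinase circRNAs passed at an FDR of 0.05, where 0% of all 91 tested did. No kinase circRNA lay under an unadjusted p of 0.05 there, beside 1.1% of the 91 with MPA higher and 1.1% with MPA lower. Among host gene sums averaging 5 or more reads, 0 of 6 kinase hosts passed beside 0% of 180. None of the 6 lay under an unadjusted p of 0.05, where 1.11% of the 180 lay with MPA higher and 0.556% with MPA lower. With averages of 2 or more reads, 0 of 13 kinase circRNAs passed beside 0% of 382, and 0 of 12 kinase hosts beside 0% of 565. None of the 12 hosts lay under an unadjusted p of 0.05, beside 2.12% of the 565 with MPA higher and 1.24% with MPA lower. DESeq2 called 0 in each of these sets and put no kinase circRNA or host under an unadjusted p of 0.05.

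None of the 13 kinase circRNAs and none of the 12 kinase hosts had groups that did not overlap. Over the 382 circRNAs, 3.66% did not overlap with MPA higher and 4.97% with MPA lower, and over the 565 hosts 4.6% with MPA higher and 3.89% with MPA lower. The median log2 fold change was -0.15 over the 13 kinase circRNAs and 0.07 over all 382, and -0.32 over the 12 kinase hosts and 0.01 over all 565. The kinase medians changed sign as single libraries were left out: that of circRNAs was 0.42 without control replicate 3 (0.12 over all), and that of hosts was 0.01 without control replicate 1 (0.10 over all).

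**Figure D5:**
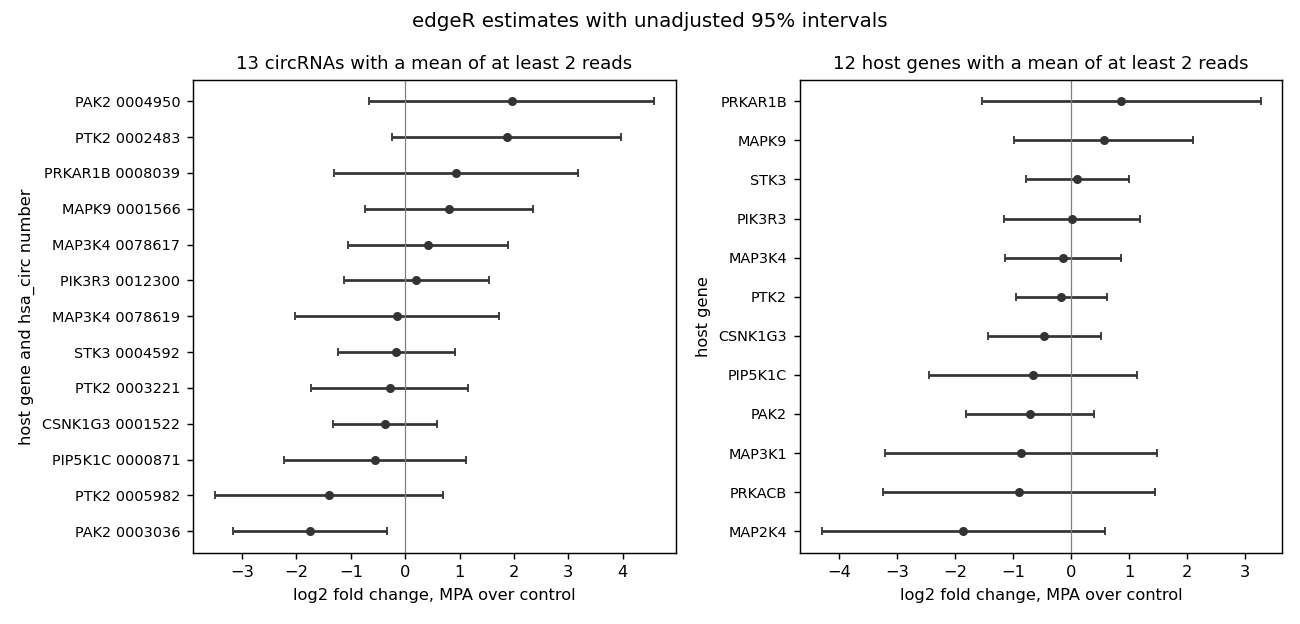
Log2 fold change of MPA against control (x axis) for the 13 kinase circRNAs and the 12 kinase host genes averaging 2 or more reads, as edgeR estimates with 95% intervals. Of the intervals, only that of PAK2 hsa_circ_0003036, at -3.17 to -0.32 before adjustment, leaves out 0. Without control replicate 1 its estimate is -0.98 with an SE of 1.11.

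Features that the name rule did not use are given for the kinase rings beside the whole table, with no test. Exonic circRNAs made up 74 of the 79 (93.7%), beside 89.4% of all, and 65 (82.3%) had a circBase identifier, beside 78.9%. More of the kinase circRNAs were read in all 6 libraries, 7 of 79 (8.86%) beside 5.40%, and 13 (16.5%) averaged 2 or more reads, beside 7.94%. Those read with MPA only were 14 (17.7%) beside 32.7% of all, and those read in control cells only were 23 (29.1%) beside 25.2%. Both shares depend on library depth and on reads per ring, which were not matched. The exonic rings had a median length of 474.5 bases, beside 551 bases.

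Of the 19 hosts with 2 or more circRNAs, 12 had rings that share a splice site, through 9 common acceptors and 9 common donors. In all 39 kinase circRNAs (49.4%) shared a site with another ring of the table, beside 43.5% of all. All 74 exonic kinase rings matched a run of whole exons by span and length, beside 93.0% of all exonic rings. The match began at exon 2 for 25 of them (33.8%, beside 30.2%), and at exon 1 or ended at the last exon for none. The start codon lay within 18 (24.3%, beside 14.4%), of which 7 were PTK2 rings, and 53 (71.6%) were coding throughout, beside 83.3%. The median ring held 4 exons among kinase hosts and in the whole table.

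Other genes of the same pathways, which the name rule does not take, were also hosts. The list of 51 other MAPK pathway genes took RAS proteins, their regulators, RAF and other kinases, phosphatases, growth factor receptors, and TRAF and TAB adaptors. Of these 51 genes 13 were hosts, with 22 circRNAs and 74 reads. They held 0.363 ± 0.124% of junction reads with MPA and 0.187 ± 0.00100% in control cells (SD, n = 3 each). By library the list held 0.224, 0.461 and 0.403% with MPA (10, 20 and 22 reads), against 0.185, 0.187 and 0.187% in control cells (8, 7 and 7 reads). The small control SD rests on these few reads and does not measure counting error. How often lists of like size separate was not counted. Every MPA library lay above every control library, the opposite side from the MAPK cascade hosts of the name rule. SHOC2, a RAS-RAF scaffold, had 4, 2 and 4 reads with MPA, against 0, 0 and 1 in control cells. BRAF, a kinase that RAS activates, had 1, 7 and 0 reads with MPA, against 0, 0 and 2 in control cells. NF1, a RAS inhibitor, was the only one of the 13 averaging 2 or more reads, and its log2 fold change was -0.28 ± 1.23 (SE; edgeR adjusted p = 0.987).

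Of 42 other PI3K, AKT and mTOR pathway genes 15 were hosts, with 93 reads, at 0.413 ± 0.111% with MPA and 0.289 ± 0.161% in control cells (SD, n = 3 each). The receptor gene ERBB2 had 1, 5 and 6 reads with MPA, against 6, 0 and 7 in control cells, a log2 difference of -0.39 ± 0.84 (SE; edgeR adjusted p = 0.987). RPS6KC1 had 0, 0 and 4 reads with MPA, against 1, 4 and 3 in control cells, a log2 difference of -1.24 ± 1.25 (SE; edgeR adjusted p = 0.987). So 0 of 1 and 0 of 2 tested hosts of these lists passed, and SHOC2 and BRAF were named after their values were seen.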

How the data were processed

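Reads across back-splice junctions were counted per circRNA in 3 MPA and 3 control libraries. The deposited counts are not normalized, per the file headers. CASAVA 1.8, BWA and the build hg19 are named in the submitters' processing notes. No source used here names the circRNA caller. Host names, classes, circBase identifiers and ring lengths (another deposited column) are the authors' annotation, and 6 columns of log-scale CPM were not used. Coordinates are hg19 as deposited, with the start counted from 1.

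All circRNAs averaging 5 or more reads, and reads summed per host gene under the same filter, were fitted with edgeR 4.0.16 (R 4.3.3), using TMM scaling after the filter, a group term, robust quasi-likelihood and Benjamini-Hochberg adjustment over all features at an FDR of 0.05. A fit at an average of 2 or more reads was made too. The SE is the log2 fold change divided by the root of its F statistic, and 95% intervals are unadjusted. The 6 hosts and 3 circRNAs past the mean of 5 are given from the first fit, the others from the second. DESeq2 1.42.0 was an alternative. Scripts were tested on simulated data. The 10 circRNAs without a host name (0.0806% of reads) stayed out of host sums but in library totals. Intervals of share ratios are exact and cover counting error only. Within each group every pair of libraries differed beyond sampling noise (chi-square p at most 0.00581).

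Each exonic ring was matched by genomic span and ring length to consecutive exons of its host in GENCODE 29 (GRCh38), with no conversion of coordinates. Rings of chromosome 8 and those with untranslated flanks are not printed.

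Named were the circRNAs averaging 5 or more reads, the 20 most read hosts with ties, hosts with 5 or more circRNAs, the most read host of each family, matching names that are not kinases, and the 3 smallest p in each direction in the second fit. A result that this rule takes is not reported here. The members, families and lists were chosen with earlier results of these data known. The rest was done in Python 3.11.15 with pandas 2.3.3, numpy 2.4.6, matplotlib 3.10.9 and scipy 1.17.1.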

Additional observations from a re-analysis of the deposited data

How the results depend on the processing

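No kinase circRNA or host passed an FDR of 0.05 with DESeq2, with read totals alone, with DESeq2 size factors in edgeR, at a mean of at least 2 reads, with no filter, or as each library was left out. Over all features, counts of calls ran from 0 to 1 as each library was left out; without control replicate 2, 1 circRNA and 1 host passed, both of RAB3IP, which is no kinase. Libraries that share a replicate number across the groups had correlations of -0.08, 0.15 and 0.32. Those with different numbers had -0.28 to 0.11, so whether the numbers mark pairs is not settled. The fit with the replicate block called 0 circRNAs and 0 hosts and left the share difference at -0.342. Counting only circRNAs averaging 2 or more reads moved the share difference to 0.167 in the MAPK cascade, -0.255 in PAK and STK and 0.0797 in PKA, AMPK, PKC and ROCK, against -0.132, -0.00534 and -0.0621 percentage points.

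The named log2 fold changes of kinase circRNAs and kinase hosts kept their direction in all 118 values under those other settings and in 129 of 150 with a library left out. Leave-one-out ranges that crossed 0 were -0.90 to 0.011 for PIP5K1C hsa_circ_0000871 and -0.97 to 0.0074 for its host, -0.15 to 0.48 for PIK3R3 hsa_circ_0012300 and -0.028 to 0.13 for its host, -0.77 to 0.29 for MAP3K4 hsa_circ_0078619 and -0.42 to 0.26 for its host, -0.093 to 2.19 for PRKAR1B hsa_circ_0008039 and -0.11 to 2.12 for its host, -1.02 to 0.49 for PTK2 hsa_circ_0003221 and -1.27 to 0.31 for its host, -0.59 to 0.26 for STK3 hsa_circ_0004592 and -0.23 to 0.80 for its host, and -1.05 to 0.051 for the PAK2 host. The cause was not tested. Depth limits most members: 66 of the 79 circRNAs had a mean under 2 reads. The log2 differences of NF1, ERBB2 and RPS6KC1 were not recomputed under other settings.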
